A study of Mus musculus with 5 samples.

Results

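Interferon signalling from receptor to transcription factor was followed in N2A (Neuro-2A) cells, a mouse neuroblastoma line, through 9 genes: the type I interferon receptor chains Ifnar1 and Ifnar2, the receptor-bound kinases Jak1 and Tyk2, the signal transducer Stat2, and the interferon regulatory factors Irf1, Irf3, Irf7 and Irf9. They were taken by symbol from a table of 55573 genes, of which 28121 had at least 1 read and 15191 were tested, and all 9 were tested. Cells had been transfected, with the TransIT-X2 reagent, with 60 pmol of either control siRNA (Silencer Negative Control #1; siCtl, 2 libraries, replicates 1 and 3) or an siRNA against Upf1 (siUpf1, 3 libraries, replicates 1, 2 and 3), and poly(A) RNA was sequenced. The study lowered Upf1, which encodes an RNA helicase required for nonsense-mediated mRNA decay (NMD), to find the transcripts that depend on it. Both groups had received an siRNA and the transfection reagent, and Upf1 was targeted by a single siRNA in a single line. Neither untransfected cells nor cells given interferon were analysed here.

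Type I interferons are secreted proteins that bind a receptor made of the IFNAR1 and IFNAR2 chains, which carry the kinases TYK2 and JAK1. The kinases phosphorylate STAT proteins, among them STAT2, which joins IRF9 in ISGF3, a complex that binds interferon-stimulated response elements (ISREs) and turns on antiviral genes. IRF3 and IRF7 act one step earlier: once sensors of foreign nucleic acid activate them, they turn on the interferon genes themselves, while IRF1 is a transcription factor that is itself induced by interferons.

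The 5 libraries held 20402205 to 27717594 assigned reads. Upf1 was at 5230 ± 18.1 normalised read counts (read counts divided by a size factor for each library; SD, n = 2) in siCtl cells and 2449 ± 46.6 (n = 3) in siUpf1 cells, or 46.8% of the siCtl level (log2 fold change -1.10, SE 0.05, DESeq2 adjusted p = 7.09e-101). Of 14 neuroblastoma and neuronal markers, 12 were tested, and the summed level of the list was 62468 to 62799 in siCtl and 61894 to 66107 in siUpf1 libraries, while Nefl and Nefm were close to 0. The 7 leukocyte markers summed to 44.0 to 46.2 normalised counts in siCtl and 44.5 to 56.5 in siUpf1 libraries, and the leukocyte-defining gene Ptprc had at most 5 reads and Cx3cr1 had none, while Cd68 made up most of the sum (34.3 and 31.9 normalised counts on average in siCtl and siUpf1) and Lyz2 was at 5.35 and 14.4, neither of them called. The 5 fibroblast markers summed to 288 to 306 in siCtl and 223 to 258 in siUpf1 libraries, with Pdgfra called lower (log2 fold change -0.47), Col1a1 (-0.36) and Dcn (0.77) not called, Col1a2 not tested and Lum without a read. The 3 endothelial markers summed to 214 to 224 and 133 to 140, Kdr had no read, Pecam1 was called lower (log2 fold change -0.78) and Cdh5 was not called (0.38). The fibroblast and endothelial sums moved with the group mainly through Pdgfra and Pecam1, while Dcn, Col1a2 and Cdh5 had higher means in siUpf1 cells, and their part in the results was not tested.

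The start of a gene can hold elements through which interferons act, so promoters of the genes with the clearest or the opposite changes are shown. RefSeq (GRCm38.p6) gave 11 windows for the 9 genes, each with 250 bases before and 50 after a transcription start. They were searched on both strands for the core of the ISRE (GAAANNGAA) and for the interferon-gamma activated site (GAS, TTCNNNGAA), which STAT dimers bind. The core was in 8.53% and the GAS in 8.33% of all 32544 promoters of this length. Positions are counted from the start, and capitals mark a match to either motif. An Irf1 window (chr11:53769764-53770063, plus strand) had a GAS beginning at -90. The Stat2 window (chr10:128270248-128270547, plus strand) had an ISRE core on the opposite strand beginning at -221, and the Ifnar1 window (chr16:91484965-91485264, plus strand) a GAS beginning at -5.
Irf1: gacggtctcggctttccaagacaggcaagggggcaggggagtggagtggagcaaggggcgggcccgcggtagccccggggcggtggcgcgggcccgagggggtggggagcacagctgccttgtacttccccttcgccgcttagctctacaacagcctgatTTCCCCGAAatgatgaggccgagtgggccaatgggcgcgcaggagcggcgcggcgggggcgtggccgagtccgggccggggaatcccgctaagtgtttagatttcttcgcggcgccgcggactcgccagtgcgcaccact
Stat2: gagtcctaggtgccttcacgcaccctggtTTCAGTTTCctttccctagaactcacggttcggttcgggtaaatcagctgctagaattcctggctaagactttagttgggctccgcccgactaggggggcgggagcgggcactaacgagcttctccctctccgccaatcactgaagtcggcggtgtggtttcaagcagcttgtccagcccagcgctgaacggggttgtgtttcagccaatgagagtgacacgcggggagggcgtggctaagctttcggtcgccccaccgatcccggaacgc
Ifnar1: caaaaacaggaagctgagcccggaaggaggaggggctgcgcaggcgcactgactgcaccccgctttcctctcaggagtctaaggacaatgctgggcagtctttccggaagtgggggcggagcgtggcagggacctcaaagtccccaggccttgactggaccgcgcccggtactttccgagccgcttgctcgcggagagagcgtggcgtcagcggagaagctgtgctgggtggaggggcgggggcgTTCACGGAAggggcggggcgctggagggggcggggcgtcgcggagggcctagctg
The Ifnar2 window also held a GAS, at -214. Neither string of letters was in 7 of the 11 windows, including all those of Jak1, Tyk2, Irf3, Irf7 and Irf9. The other Irf1 window (chr11:53770223-53770522), not shown, was also among these. A match is a description of the sequence and not a measured site.

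The transcription factors of the pathway fell after Upf1 knockdown, and of its receptor chains and kinases only Ifnar1 was called. Stat2, Irf1, Irf3, Irf7 and Irf9 were called lower, Ifnar1 was called higher, and Ifnar2, Jak1 and Tyk2 were not called (DESeq2 Wald test, Benjamini-Hochberg adjusted p under 0.05). That is 6 of 9 genes called, in a comparison in which 44.9% of all tested genes were called, and 5 of 9 called lower and 1 of 9 called higher, where 22.9% of all tested genes were called lower and 22.0% higher. Without siCtl replicate 3 the number called lower was 2, without any other single library it was 4 or 5, and without any 1 of the 5 libraries Ifnar1 was no longer called. The groups did not overlap for 6 of the 9 genes, as for 69.4% of all tested genes, and all siUpf1 libraries lay below both siCtl libraries for 5 of 9, as for 35.2%. The median log2 fold change was -0.27 over the 9 genes and -0.0024 over all tested genes. The median over the 9 genes was -0.17, -0.34 and -0.33 in siUpf1 replicates 1, 2 and 3, each against the siCtl mean. In poly(A) RNA from bulk cells, fewer cells that express a gene and less RNA per cell cannot be told apart.

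**Figure D1:**
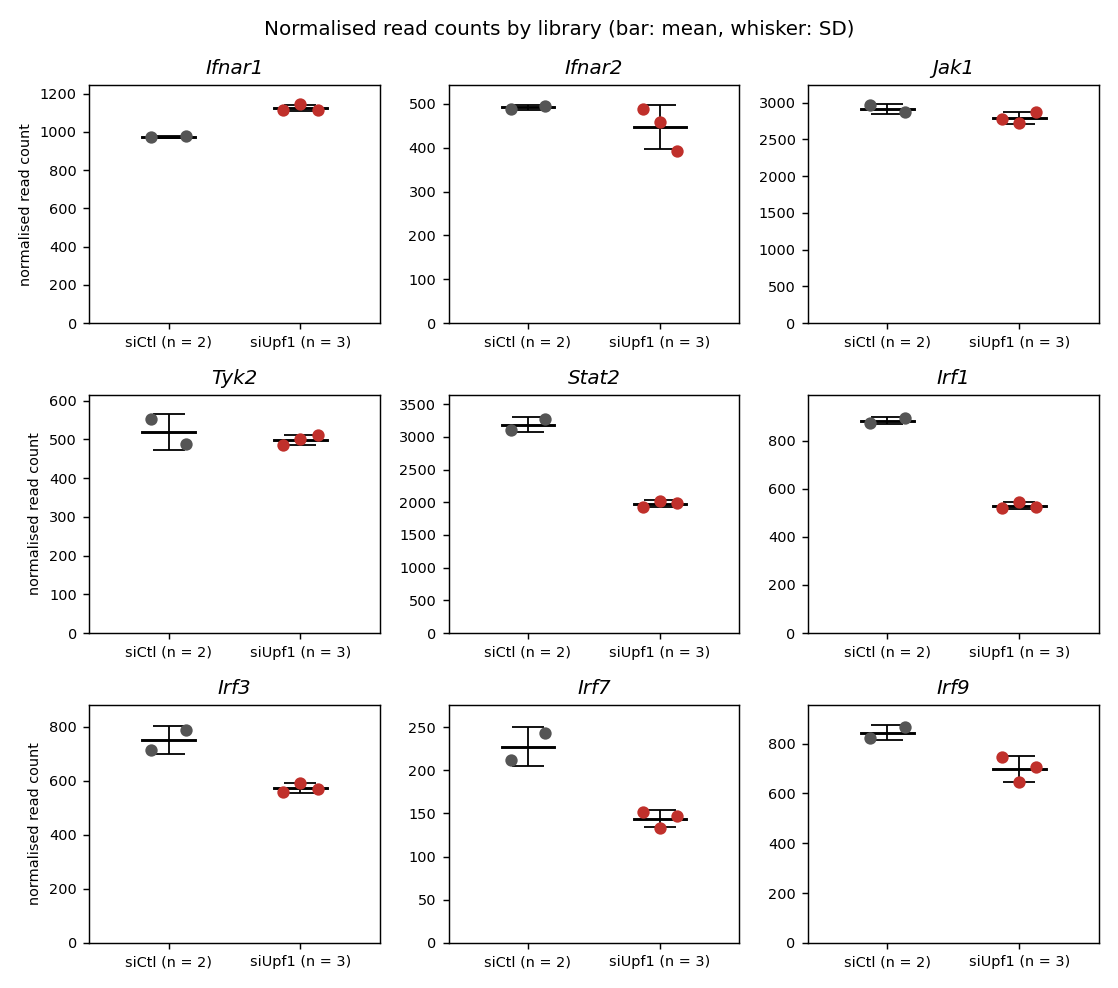
Normalised read counts (y axis, from 0) of the 9 genes in each siCtl (grey) and siUpf1 (red) library, with the group mean as a bar and the SD as a whisker. The siUpf1 libraries lie below both siCtl libraries for Stat2, Irf1, Irf3, Irf7 and Irf9, above them for Ifnar1, and overlap them for Ifnar2, Jak1 and Tyk2.

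The receptor chains are encoded near each other on chromosome 16, and one of them passed the test. Ifnar1 (chr16:91485238-91507441, plus strand, GRCm38), the chain that carries TYK2, had 972 and 978 normalised counts in siCtl replicates 1 and 3 and 1113, 1145 and 1116 in siUpf1 replicates 1, 2 and 3. Every siUpf1 library was above both siCtl libraries. The means were 975 ± 4.68 (SD, n = 2) and 1125 ± 17.3 (n = 3), with a log2 fold change of 0.21 (SE 0.08, 95% interval 0.05 to 0.36, DESeq2 adjusted p = 0.0207). The call was lost when any 1 of the 5 libraries was left out, with DESeq2 adjusted p from 0.0553 to 0.166, although the fold change stayed between 0.19 and 0.21.

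Ifnar2 (chr16:91372783-91405589, plus strand), the chain that carries JAK1 and binds interferon most tightly, had 488 and 496 normalised counts in siCtl and 489, 459 and 392 in siUpf1 libraries. The groups overlapped, since siUpf1 replicate 1 lay between the siCtl libraries. The log2 fold change of -0.14 (SE 0.12, 95% interval -0.38 to 0.10) did not pass the test (DESeq2 adjusted p = 0.370). A stretch of 315 exonic bases, 9.46% of its exons, is shared on the same strand with the gene model Gm21970, and reads there could be split or dropped.

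The kinases had the smallest fold changes of the 9 genes. Jak1 (chr4:101152367-101265282, minus strand), which serves many cytokine receptors, had 2965 and 2866 normalised counts in siCtl and 2780, 2717 and 2877 in siUpf1 libraries, and the groups overlapped (log2 fold change -0.06, SE 0.06, 95% interval -0.17 to 0.05, DESeq2 adjusted p = 0.396). Tyk2 (chr9:21104068-21131243, minus strand), its partner kinase at this receptor, had 551 and 487 in siCtl and 485, 500 and 511 in siUpf1 libraries. These groups overlapped too, and the spread within siCtl was wider than the distance between the means (log2 fold change -0.06, SE 0.11, 95% interval -0.27 to 0.16, DESeq2 adjusted p = 0.717). Without siCtl replicate 1 the sign of the Tyk2 change turned (0.030, DESeq2 adjusted p = 0.908).

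Stat2 (chr10:128270559-128292849, plus strand), the transducer particular to interferon signalling in ISGF3, had the smallest adjusted p of the 9 genes. It had 3106 and 3271 normalised counts in siCtl and 1923, 2018 and 1996 in siUpf1 libraries. All siUpf1 values lay far below both siCtl values. The means were 3188 ± 117 (SD, n = 2) and 1979 ± 49.9 (n = 3), so that siUpf1 cells held 62.0% of the siCtl level (log2 fold change -0.69, SE 0.06, 95% interval -0.80 to -0.57, DESeq2 adjusted p = 2.72e-30). The call held under all 13 alternative settings.

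Irf9 (chr14:55603571-55610030, plus strand), which gives ISGF3 its DNA binding, was called with a smaller fold change than its partner Stat2, and their 95% intervals did not overlap. It had 822 and 865 normalised counts in siCtl and 748, 644 and 704 in siUpf1 libraries, without overlap. The means were 843 ± 30.6 (SD, n = 2) and 699 ± 52.3 (n = 3), or 83.0% of siCtl (log2 fold change -0.27, SE 0.10, 95% interval -0.46 to -0.08, DESeq2 adjusted p = 0.0129). The call was lost without siCtl replicate 1 (DESeq2 adjusted p = 0.0629), siCtl replicate 3 (0.193), siUpf1 replicate 2 (0.0923) or siUpf1 replicate 3 (0.0566), and a run of 123 exonic bases, 2.28% of its exons, is shared with Rnf31 on the same strand.

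Irf1 (chr11:53770014-53778374, plus strand) showed the largest fold change of the 9 genes. It had 872 and 893 normalised counts in siCtl and 519, 546 and 525 in siUpf1 libraries, and the groups were wide apart. The means were 883 ± 15.1 (SD, n = 2) and 530 ± 14.3 (n = 3), or 59.9% of siCtl (log2 fold change -0.74, SE 0.09, 95% interval -0.92 to -0.55, DESeq2 adjusted p = 6.23e-14). This call too held under all 13 alternatives. Among all tested genes, 5.74% had a lower log2 fold change than Irf1 and 6.79% a lower one than Stat2.

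Irf3 (chr7:44997648-45002848, plus strand), present in most cells and switched on by phosphorylation, had 715 and 790 normalised counts in siCtl and 558, 592 and 571 in siUpf1 libraries, without overlap. Its means were 752 ± 52.9 (SD, n = 2) and 574 ± 17.6 (n = 3), or 76.1% of siCtl (log2 fold change -0.39, SE 0.10, 95% interval -0.59 to -0.20, DESeq2 adjusted p = 2.54e-04). Without siCtl replicate 3, the higher of the siCtl libraries, the adjusted p was 0.0664.

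Irf7 (chr7:141262706-141266481, minus strand), which interferons induce and which in turn amplifies interferon production, was the member with the fewest counts. It had 212 and 243 normalised counts in siCtl and 152, 133 and 147 in siUpf1 libraries, and the groups did not overlap. The smallest raw count, in siUpf1 replicate 2, was 106 reads (95% Poisson interval 86.8 to 128, counting error only). The means were 228 ± 22.4 (SD, n = 2) and 144 ± 9.87 (n = 3), or 63.4% of siCtl (log2 fold change -0.66, SE 0.18, 95% interval -1.01 to -0.31, DESeq2 adjusted p = 8.31e-04). Without siCtl replicate 3 the adjusted p was 0.0916.

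**Figure D2:**
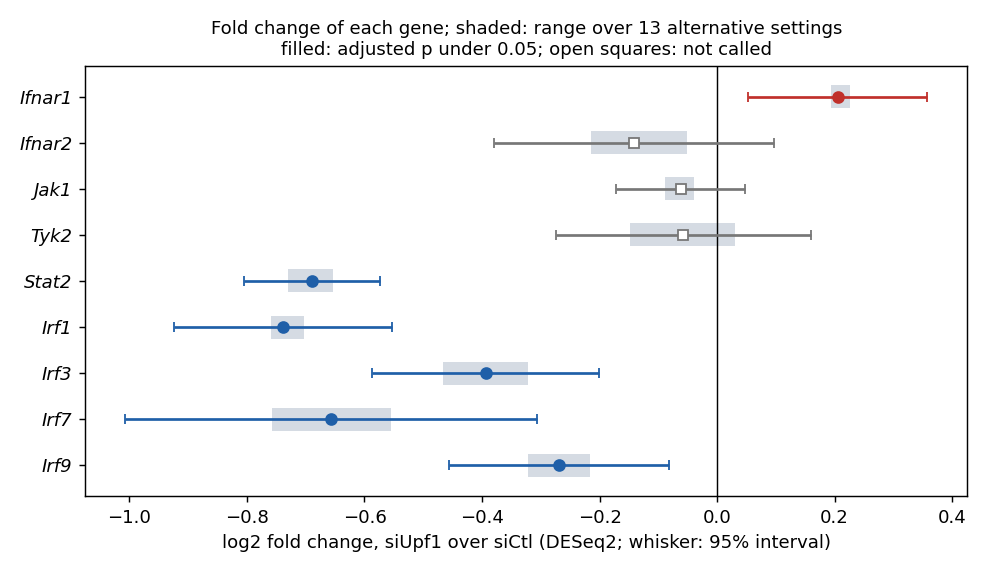
Log2 fold change of siUpf1 over siCtl (x axis, DESeq2) with its 95% interval for each of the 9 genes, ordered by role, and a shaded band for the range over 13 alternative settings. The intervals of Stat2, Irf1, Irf3, Irf7 and Irf9 lie below 0, that of Ifnar1 lies above 0 (0.05 to 0.36), and those of Ifnar2, Jak1 and Tyk2 include 0.

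**Figure D3:**
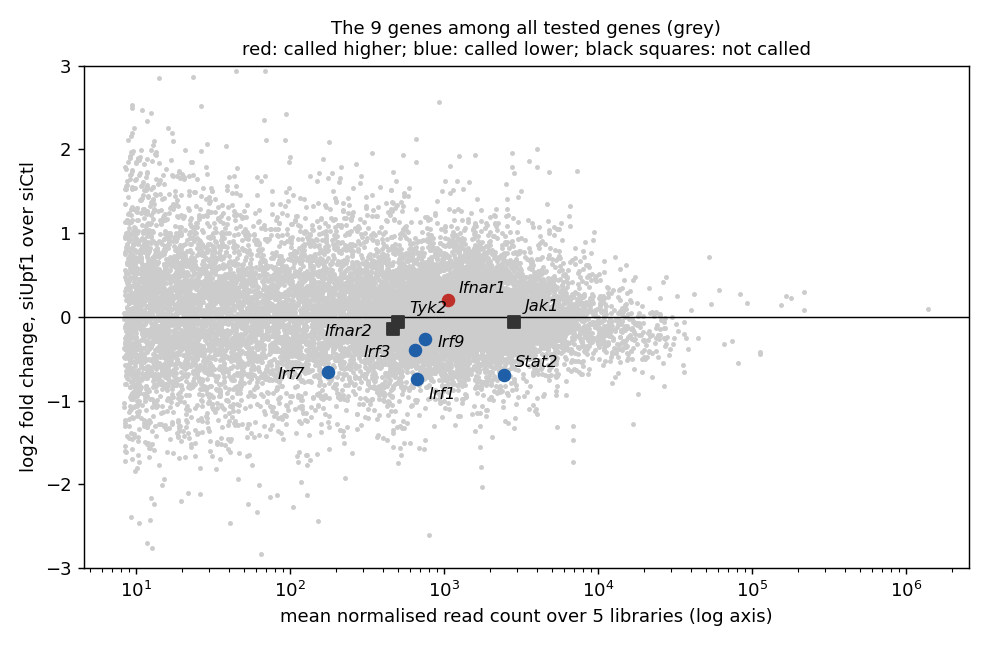
Log2 fold change (y axis, siUpf1 over siCtl) against the mean normalised read count over the 5 libraries (x axis, log scale) for the 15191 tested genes (grey) and the 9 genes, with 8 grey genes outside the plotted range. Irf1 and Stat2 lie low in the cloud at their level but inside it, while Jak1 and Tyk2 lie near its middle.

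Levels can be compared between genes only per length. On the scale of normalised counts per kilobase of all annotated exonic bases, the siCtl order was Stat2 (538 ± 19.7, SD, n = 2), Jak1 (403 ± 9.72), Irf1 (222 ± 3.79), Irf3 (219 ± 15.4), Ifnar1 (164 ± 0.79), Irf9 (157 ± 5.69), Ifnar2 (148 ± 1.65), Tyk2 (75.6 ± 6.65) and Irf7 (60.3 ± 5.93). Of neighbours in that order, Irf1 and Irf3 overlapped between libraries and the others did not. In siUpf1 cells Jak1 (386 ± 11.1, n = 3) stood above Stat2 (334 ± 8.42) and Ifnar1 (189 ± 2.91) above Irf3 (167 ± 5.11), while Ifnar2 (134 ± 14.9), Irf1 (133 ± 3.61) and Irf9 (130 ± 9.71) overlapped, and Tyk2 (72.6 ± 1.90) and Irf7 (38.2 ± 2.61) remained last. When the length of 1 representative transcript was used instead, an alternative chosen after seeing the data, Ifnar1 and Irf9 traded places in the siCtl order, as did Tyk2 and Irf7. In siUpf1 cells Ifnar1 (288), Irf9 (284) and Irf3 (282) then stood beside each other, above Irf1 (248) and Ifnar2 (147). The closeness of Ifnar2, Irf1 and Irf9, and the distance of Ifnar1 from Irf3, thus depended on the length used.

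The balance between partners was followed as a ratio within each library, which does not depend on how libraries are scaled. Stat2 over Irf9, the partners in ISGF3, was 3.43 and 3.44 in siCtl and 2.34, 2.85 and 2.58 in siUpf1 libraries on the scale of counts per kilobase, so that every siUpf1 library was lower. Ifnar1 over Ifnar2 was 1.11 and 1.10 in siCtl and 1.28, 1.40 and 1.59 in siUpf1 libraries, all higher. Irf3 over Irf7 was 3.70 and 3.56 in siCtl and 4.02, 4.88 and 4.26 in siUpf1 libraries, also all higher, whereas Jak1 over Tyk2 overlapped between groups (5.11 and 5.59 against 5.45, 5.17 and 5.35). The ratios were chosen after the values of the genes were seen and were not tested, since 2 libraries against 3 cannot give an exact permutation p under 0.1.

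**Figure D4:**
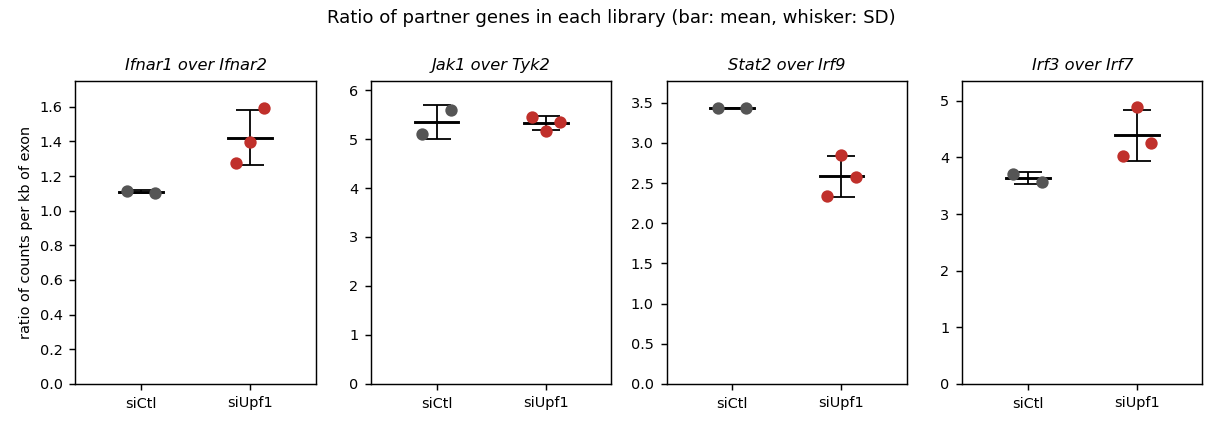
Ratio of normalised counts per kilobase of exon (y axis, from 0) for 4 pairs of partner genes in each siCtl (grey) and siUpf1 (red) library, with the mean as a bar and the SD as a whisker. Stat2 over Irf9 is lower in every siUpf1 library (2.34 to 2.85 against 3.43 to 3.44), Ifnar1 over Ifnar2 and Irf3 over Irf7 are higher, and Jak1 over Tyk2 overlaps.

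Interferon genes themselves were all but silent in both groups. The list held the type I interferons, which bind this receptor, and Ifng, Ifnl2 and Ifnl3, whose products bind other receptors. Of these 21 genes, 19, the last 3 among them, had no read in any library and none of the other 2 could be tested: Ifnab had 4 and 2 reads in siCtl and 3, 0 and 2 in siUpf1 libraries, and Ifnz had 2 reads in 1 siUpf1 library. For the 19, a count of 0 allows at most 3 counts, which is 0.108 to 0.147 counts per 1000000 in these libraries and covers counting error only. Interferons made at a lower level, or with RNA outside the poly(A) fraction, were not detectable here.

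Among relatives of the 9 genes, a few were called lower and the rest were not called, where 22.9% of all tested genes were called lower. Among the other receptor chains and JAK kinases, 2 of 5 tested genes were lower, namely Jak3 (log2 fold change -0.97, adjusted p = 6.14e-04), the kinase of common gamma chain receptors, and Jak2 (-0.40, adjusted p = 1.75e-06), which serves the interferon-gamma receptor. The interferon-gamma receptor chains Ifngr1 (-0.24) and Ifngr2 (0.11) and the Il10rb chain of the interferon-lambda receptor (-0.22) were not called by DESeq2 (adjusted p = 0.0667, 0.178 and 0.116), and Ifnlr1 had no read. With edgeR, 4 of the 5 were called lower. The median of this list was -0.24, beside -0.0024 over all genes.

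Of the 5 other STAT genes tested, 2 were lower: Stat3 (-0.68, adjusted p = 2.67e-33), which transmits interleukin-6 family signals, and Stat5a (-0.71, adjusted p = 1.35e-04), which transmits growth hormone and prolactin signals. The others tested were not called. The median of the list was -0.14, and 22.9% of all tested genes were called lower.

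Of the 6 other IRF and IRF2-binding protein genes tested, 2 were lower (median of the list -0.06), beside 22.9% of all tested genes. Irf2, a factor that competes with IRF1 for its sites, had 1043 ± 5.99 normalised counts in siCtl and 674 ± 16.0 in siUpf1 cells (log2 fold change -0.63, DESeq2 adjusted p = 3.32e-12), and Irf5 had 40.0 ± 4.74 and 15.3 ± 1.57 (-1.38, DESeq2 adjusted p = 0.00803; SD, n = 2 and 3). The others tested were not called, among them the IRF2-binding protein genes Irf2bp1 (0.15), Irf2bp2 (-0.07) and Irf2bpl (-0.05). Without siCtl replicate 1, and likewise without siCtl replicate 3, 1 of these genes was called lower.

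Genes that hold the pathway back were called in both directions, as were all tested genes (22.9% lower and 22.0% higher). Of 13 inhibitors of JAK-STAT signalling, 5 were lower and 4 higher (median -0.31). The largest decreases were in Usp18 (-1.31, DESeq2 adjusted p = 1.59e-13), which blocks IFNAR2, and in the SOCS genes Socs3 (-1.24, 8.03e-07) and Socs1 (-0.73, 0.00950), all of which cytokines or interferons induce. The largest increases were in Socs2 (0.57, DESeq2 adjusted p = 1.52e-07), the phosphatase gene Ptpn11 (0.56, 3.21e-36) and the phosphatase gene Ptpn1 (0.33, 6.14e-06). Without siCtl replicate 1, 3 of the inhibitors were called lower.

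Of 14 kinases and adaptors that lead from nucleic acid or Toll-like receptor sensing to IRF3 and IRF7, 7 were lower and 1 higher (median -0.28). Over all tested genes, 22.9% were called lower and 22.0% higher. The largest decreases were in Ikbke (-0.82, DESeq2 adjusted p = 0.0441), a kinase of IRF3, in Tmem173 (-0.61, 4.61e-06), which encodes the adaptor STING, and in Myd88 (-0.55, 0.00721), the adaptor of Toll-like receptors. Tbk1, the main kinase of IRF3, fell to 75.2% of siCtl (-0.41, DESeq2 adjusted p = 3.12e-12), and the TBK1-binding Tbkbp1 (-0.51), Mavs (-0.37) and Cgas (-0.36) were also lower. Traf3, which couples these sensors to TBK1, was the gene called higher (0.58, DESeq2 adjusted p = 5.87e-15). The number called lower was 4 without siCtl replicate 1, without siCtl replicate 3 or without siUpf1 replicate 3, and the number called higher was 2 without siUpf1 replicate 2.

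The genes that ISGF3 acts on were lower almost throughout, where 22.9% of all tested genes were called lower. Of 17 tested ISGF3 target genes, 14 were lower and the other 3, Ifi27 (-0.12), Rtp4 (-0.23) and Ifit3 (-1.09, under 20 normalised counts in each library), were not called (median log2 fold change -1.09, beside -0.27 for the 9 genes). The largest decreases were in Rsad2 (-2.61, DESeq2 adjusted p = 1.91e-145), which makes an antiviral nucleotide, in Ifi44 (-2.01, 0.00536, from a mean of 26.7 to 6.66 normalised counts), and in the chemokine gene Cxcl10 (-1.44, 1.40e-26). The smallest called decreases were in Bst2 (-0.19, DESeq2 adjusted p = 0.0116), Cmpk2 (-0.62, 8.05e-06) and Mx1 (-0.75, 0.0158). The list summed to 14831 to 15130 normalised counts in siCtl and 8996 to 10253 in siUpf1 libraries. Its median log2 fold change depended on the setting, from -1.25 without siUpf1 replicate 1 to -0.78 with shrunken fold changes. Interferon-stimulated genes had been seen to fall in earlier results of these data, so that this count is not independent evidence of their direction.

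**Figure D5:**
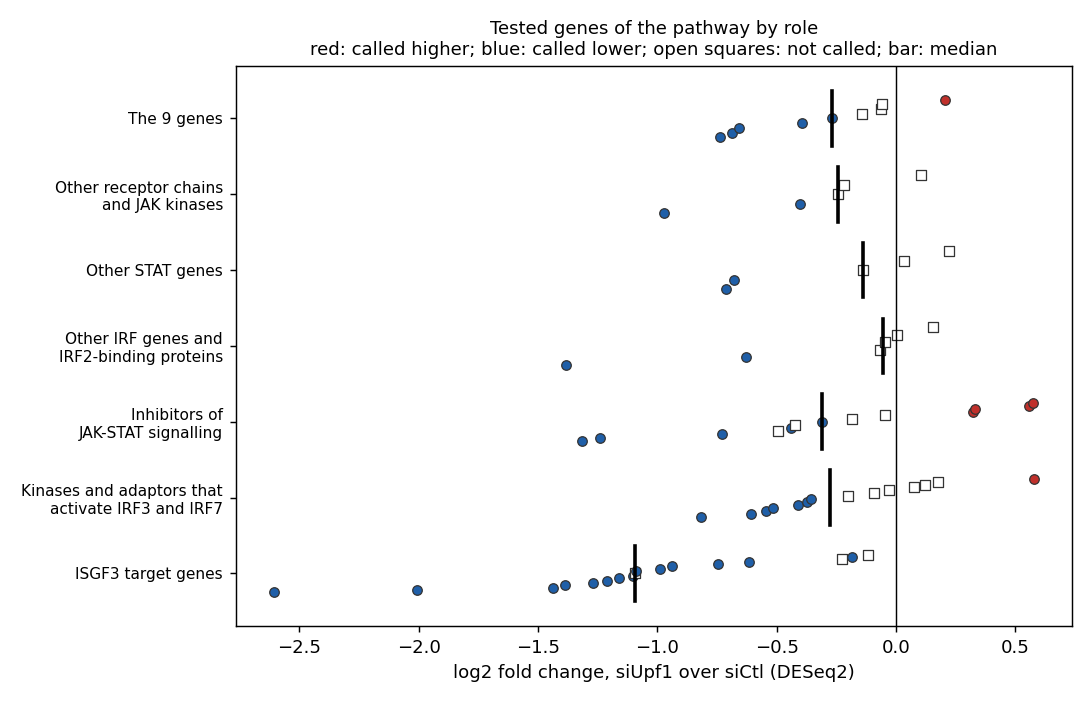
Log2 fold change of siUpf1 over siCtl (x axis) of each tested gene of the pathway by role, with genes called lower in blue, called higher in red and not called as open squares, and the list's median as a bar. The ISGF3 target genes have the lowest median (-1.09), and the inhibitors of JAK-STAT signalling hold 4 of the higher calls.

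Features of the 9 transcripts that bear on the treatment were then read from the annotation. Transcripts of Ifnar1, Irf1 and Irf7 included forms annotated as NMD targets (3 for Ifnar1 and 1 each for Irf1 and Irf7), and the other 6 genes had none. Of 12746 tested protein-coding genes, 28.5% had such a form, with a median log2 fold change of -0.04, against -0.02 for genes without one. Counts per gene do not separate these forms.

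An siRNA can also act on other mRNAs through bases 2 to 8 of either strand, so the 7-base sites that pair with the seeds of the Upf1 siRNA were looked for in the 3′ UTR of 1 representative transcript of each gene. Stat2 was the only one of the 9 genes with a match, and its 3′ UTR of 1476 bases held one for each strand, at base 308 for the antisense strand and at base 948 for the sense strand (capitals mark the site).
Stat2 antisense-seed site: tttaatgttttGATAATTggctaagttgg
Stat2 sense-seed site: ttgggtctcagAACCTTGaaggtttatca
The antisense-seed site was in 7.84% and the sense-seed site in 10.0% of 12402 mRNAs with a 3′ UTR of at least 50 bases. The 3′ UTR of Irf7, at 42 bases, was below that minimum and left little room for a match. The median log2 fold change of mRNAs with the antisense-seed site was 0.0024, against -0.0229 without it, and with the sense-seed site -0.105, against -0.0149 without it. The part of these sites in the change of Stat2 was not tested.

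The genes whose profile over the 5 libraries was most like that of Irf1 were looked for among 10962 genes averaging 100 normalised counts or more, by the root mean square difference of centred log2 counts. The nearest were Ccdc6 (0.0058), Rcor2 (0.0111), Rab2a (0.0116), Mrps15 (0.0123) and Slc25a22 (0.0126), and 94 genes lay within 0.05. None of the 9 genes or of the lists was among the 5 nearest, and with 5 libraries in 2 groups the measure mostly reflects the size of the difference between groups.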

How the data were processed

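Raw counts of reads for each gene were deposited. Per the labels and the methods, the authors made poly(A)-selected, strand-specific libraries, mapped reads to GRCm38.p6 with STAR (2.7.0f in the submitters' processing notes) and counted them per gene with featureCounts of Subread (1.6.4); no normalization was applied to these counts and replicates were not pooled. Every column of counts was matched to a sample by its title.

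From these counts, DESeq2 (version 1.42.0, R 4.3.3) fitted group alone over all 5 libraries with median-of-ratios size factors, the Wald test, independent filtering and Benjamini-Hochberg adjustment over 15191 genes. Calls required an adjusted p under 0.05. Normalised read counts are counts divided by the size factor. The 9 genes, the gene lists and the ratios were chosen with earlier results of these data known. Besides the 9 genes, the text names Upf1, in each list the called genes with the 3 highest and 3 lowest fold changes and any needed to complete a short count, and the 5 genes nearest to the called member with the largest change. The other IRF, STAT, receptor and marker genes that were not called, and Bst2, Ifnab and Ifnz, complete such counts or give context and were chosen after their values were seen. Some genes of the lists are not reported here.

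The paper describes its western blots of the siRNA-treated cells as representing 3 independent experiments. It does not state whether each library came from a separate culture. The p-values therefore measure the spread between these libraries, which may be technical. An exact permutation test of 2 against 3 libraries cannot give a p-value under 0.1, and none was made. The sources do not say whether libraries with the same replicate number share a culture or day. Deviations of same-numbered libraries were not positively correlated (-0.086 for number 1 and -0.075 for number 3), and the main test fitted no pairing. With 2 siCtl libraries, whose deviations mirror each other, these values cannot decide whether the numbers pair. A count of 3 corresponded to 0.108 to 0.147 counts per 1000000, which covers counting error only, since PCR duplicates cannot be seen in counts.

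Gene models came from GENCODE M21 on GRCm38, in which 99.9% of 28121 identifiers with a read were found. Per the methods, the counting used a later GENCODE release, so lengths, overlaps and NMD forms given here can differ from the models that were counted. Promoters came from RefSeq (GRCm38.p6). Scripts were tested on simulated data. The alternatives were edgeR (4.0.16), TMM or total-count size factors, a minimum of 10 counts in 2 libraries, no filter, shrunken fold changes, mitochondrial genes left out, a replicate block and the omission of each library.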

Additional observations from a re-analysis of the deposited data

How the results depend on the processing

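The calls of Stat2 and Irf1 held under all 13 alternatives, and Irf3 (12 of 13), Irf7 (11), Irf9 (8) and Ifnar1 (7) were called under fewer. No sign of a fold change turned except that of Tyk2, which ran from -0.15 to 0.030 as single libraries were left out, the latter without siCtl replicate 1. With the replicate block, for numbers whose pairing is not known, 0 members were called higher and 3 lower. Ifnar1, Irf7 and Irf9 lost their calls (DESeq2 adjusted p = 0.302, 0.104 and 0.315). Among all genes, 1957 were called higher and 1962 lower. In the lists, the lower calls were 1 of the receptor and JAK list, 1 of the STAT list and 1 of the IRF list. They also included 3 of the inhibitors, 4 of the kinases and adaptors and 10 of the ISGF3 target genes. With any 1 library left out, 0 members were called higher by DESeq2, although Ifnar1 kept an unadjusted p under 0.05 without any 1 siUpf1 library, and 2 to 5 were called lower. Over the same omissions, the lower calls were 1 to 2 in the IRF list, 3 to 5 among inhibitors and 4 to 5 among kinases and adaptors, of which 1 to 2 genes were called higher. edgeR called 4 receptor and JAK genes lower, 1 IRF-list gene higher and 2 kinases and adaptors higher, and the minimum of 10 counts also gave 2 of the latter. A lone siCtl library was assumed to vary like the other group. The cause of these changes was not tested beyond the smaller number of libraries in an omission. Other scaling moved the median of all genes by at most 0.03. Of the 9 genes, Irf7 had the fewest counts and the widest standard error. The representative-transcript length, chosen after seeing the data, moved all 9 levels per kilobase.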
